A study of Mus musculus with 28 samples.

Results

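7 miRNAs are widely used as normalizers in studies of blood plasma: mmu-miR-191-5p, mmu-miR-425-5p, mmu-miR-423-3p, mmu-miR-423-5p, mmu-miR-484, mmu-miR-103-3p and mmu-miR-320-3p, written below without the species prefix. They were taken by name from the quantification tables, where each of the 7 has 1 row among 1966 miRNA rows and 80668 RNA rows in all. They were chosen for this use. The question was whether they stayed level across 5 ages and between 2 fractions of the blood, first in the deposited RPM, a count scaled by 1 number per library, and then relative to the other miRNAs of a library.

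The samples came from 14 female C57BL/6N mice, an inbred laboratory strain, and were all wild-type. The ages of 2, 6, 8, 12 and 18 months were represented by 3, 4, 3, 2 and 2 mice. The plasma of each mouse was divided by ultracentrifugation into a pellet enriched in extracellular vesicles (EVs) and the EV-depleted fluid that remained, called plasma here. Each mouse gave 1 small RNA library per fraction, 28 in all, and the labels' protocol says that animals were kept apart. The plasma labels of the 2-month replicates 2 and 3, however, share 1 code that joins those of both EV libraries, so for these mice the pair of libraries rests on the replicate number alone, and from the code it cannot be told which animal each plasma library came from or whether plasma was combined. With 2 mice each at 12 and 18 months, the oldest ages rest on few animals.

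A miRNA is a short RNA that guides Argonaute proteins to target transcripts, mainly through its seed, bases 2 to 8 from its 5′ end. In blood, miRNAs travel in vesicles, in lipoproteins and bound to Argonaute, and much of the total comes from blood cells. A normalizer is a miRNA whose measured level is used as the divisor for another, and any change in the divisor passes into the ratio.

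Mature sequences of 6 of the 7 members are given first, with that of miR-107-3p, because they show which members have a close relative that short reads could be shared with. They are from RefSeq (GRCm38.p6), written 5′ to 3′ with the seed in capitals.
mmu-miR-191-5p: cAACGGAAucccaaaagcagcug
mmu-miR-425-5p: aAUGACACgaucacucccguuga
mmu-miR-423-3p: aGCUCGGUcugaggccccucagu
mmu-miR-423-5p: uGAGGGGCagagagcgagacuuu
mmu-miR-484: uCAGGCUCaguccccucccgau
mmu-miR-103-3p: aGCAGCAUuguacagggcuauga
mmu-miR-107-3p: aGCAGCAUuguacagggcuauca

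No seed was shared between the members whose sequences are given. miR-320-3p is not among them and was not compared. Among 1679 mature sequences of the table, the seed of miR-103-3p recurred only in miR-107-3p, from which it differs by 1 base of 23 (G22C, counted from the 5′ end of miR-103-3p). Reads that end before that base cannot be told apart, so the values of this pair are uncertain to that extent. The seed of miR-425-5p recurred in miR-489-3p and that of miR-423-5p in miR-6921-5p. The seeds of miR-191-5p, miR-423-3p and miR-484 each occurred once.

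By the GRCm38 annotation (GENCODE M21), miR-191-5p (chr9:108568325-108568347, plus strand) and miR-425-5p (chr9:108568789-108568811, plus strand) come from hairpins 384 bases apart, both inside an exon of the lincRNA 4833445I07Rik. An annotated miRNA gene, Gm24083, lies opposite the miR-191 hairpin. The arms miR-423-5p (chr11:77078122-77078144, minus strand) and miR-423-3p (chr11:77078086-77078108) come from 1 hairpin within Nsrp1, a splicing regulator gene, on the same strand and outside its annotated exons. Mature miR-103-3p is made from 2 hairpins, within Pank3 (mature arm at chr11:35782447-35782469) and within Pank2 (mature arm at chr2:131288103-131288125), both plus strand. The hairpin of miR-107-3p (chr19:34820700-34820722 for the mature arm, minus strand) lies within Pank1. All 3 host genes encode pantothenate kinases. The hairpin of miR-484 (chr16:14159630-14159651 for the mature arm, plus strand) overlaps in part an untranslated exon of Marf1 on the other strand.

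Libraries held 928651 to 23905651 counts in plasma and 4764338 to 52753818 in EVs. Of these, 4977 to 82646 (plasma) and 20063 to 203624 (EVs) were miRNA counts, 0.248 to 0.536% and 0.222 to 0.652% of the library. The 7 members together made up 0.961 to 1.76% of the miRNA counts in plasma and 1.02 to 1.61% in EVs, which was 71 to 1064 counts per plasma library and 323 to 2678 per EV library. The shallowest library was plasma of the 6-month replicate 1, in which 1 count equals 1.70 RPM. No pair of replicates agreed within sampling noise (chi-square per degree of freedom 3.82 to 77.7 over 28 pairs).

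In such bulk samples, fewer vesicles or cells releasing a miRNA and less of it from each cannot be told apart. The 7 members spanned a wide range of abundance. Pooled over a fraction, miR-191-5p was the most abundant of them, with 3644 counts in plasma and 5778 in EVs, and ranked 31 among 1501 miRNAs with a count in plasma and 31 among 1557 in EVs. A group of 3 members lay near each other below it. These were, in plasma, miR-423-5p with 923 counts, miR-484 with 889 and miR-425-5p with 713, and in EVs they had 1875, 1151 and 1296. The other 3 were scarce: miR-103-3p had 213 counts in plasma and 459.5 in EVs, miR-320-3p 184 and 373, and miR-423-3p 126 and 329. miR-423-3p had 1 count in each of 2 plasma libraries (6-month replicate 1 and 12-month replicate 1), and miR-320-3p had none in plasma of the 12-month replicate 1, where 3 counts, the limit set for a count of 0, equal 1.99 RPM. This limit covers counting error only, while the intervals given below come from fits that include the variation between libraries. Of the 7 members, miR-191-5p, miR-425-5p and miR-484 reached 10 counts in every library.

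The first scale was the deposited RPM, which divides a count by 1 number per library that is not its total count. On this scale the mean EV level of each of the 7 members was highest at 12 months. miR-191-5p was at 23.9 RPM in the lowest plasma library, at a median of 37.8 and at 81.9 in the highest, and in EVs at 23.9, 38.7 and 108. The 2 EV libraries of 12 months were at 69.4 and 108 RPM, above all 12 other EV libraries, which lay between 23.9 and 60.6. miR-484, a repressor of mitochondrial fission that is made without Drosha, was at 5.42, 9.72 and 19.6 RPM (lowest, median, highest) in plasma and at 3.06, 8.07 and 22.5 in EVs. Its 2 EV libraries of 12 months (16 and 22.5 RPM) were again above the other 12 (3.06 to 15.4). The lowest mean of miR-484 in EVs was at 8 months, 4.98 RPM (n = 3), and the ratio of the highest mean to the lowest was 3.86.

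miR-425-5p ran from 3.66 to 27.2 RPM in plasma (median 7.90), where the highest library was the shallow one of the 6-month replicate 1, and from 3.49 to 24.9 in EVs (median 7.61). miR-423-5p ran from 4.65 to 16.8 RPM in plasma (median 10.3) and from 9.83 to 21.7 in EVs (median 16.8), with its 3 highest plasma libraries at 2 months. The fractions of both overlapped. The 3 scarce members stayed under 10 RPM in every library. miR-423-3p was at 0.355, 1.72 and 2.29 RPM in plasma (lowest, median, highest) and at 0.842, 1.79 and 6.64 in EVs, where both 12-month libraries were above 6 RPM. miR-103-3p was at 1.18, 2.06 and 5.45 in plasma and at 1.57, 2.92 and 7.26 in EVs, and miR-320-3p at 0, 2.14 and 5.11 and at 0.995, 2.95 and 5.17, with overlapping fractions in each case.

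Over the 7 members, the highest age mean in EVs was 1.61 to 4.70 times the lowest (median 2.94), and it was at 12 months in all 7. In plasma the ratio was 1.44 to 3.46 (median 1.77), with the highest mean at 2, 6 or 12 months. The lowest mean was at 8 months for 6 of 7 members in EVs, the exception being miR-423-5p at 6 months. The size of the miRNA part of a library (by TMM, explained below) over the RPM divisor had the same order in EVs. Its mean log2 was highest at 12 months (-6.23) and lowest at 8 months (-7.87). The share of all miRNAs with these ages as highest and lowest was not taken, so they are not read as a trait of the members. The largest of the EV ratios, that of miR-423-3p, rested on means of 6.35 RPM at 12 months and 1.35 at 8 months.

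With edgeR's quasi-likelihood test on library sizes from the RPM divisors (Benjamini-Hochberg), age as 5 levels was called for 71 of 307 miRNAs in EVs (23.1%) and for 2 of the 7 members, miR-423-3p (adjusted p = 0.0429) and miR-484 (adjusted p = 0.0480). The adjusted p of the other 5 members ran from 0.0548 for miR-191-5p to 0.427 for miR-423-5p. With 7 members, 2 calls are a share near this background. For 4 members (miR-191-5p, miR-423-3p, miR-423-5p and miR-484) both 12-month EV libraries lay above the other 12, a comparison chosen after the values were seen. The same was true of 70 of 307 miRNAs (22.8%). The summed RPM of all miRNAs moved with it: it was 11294 and 14702 in the EV libraries of 12 months against 3357 to 11511 (median 5708) in the other 12. The RPM divisor is not the total count, and as a share of that total the 12-month EV libraries did not both stand out. There miRNAs made up 0.652% in replicate 1 and 0.386% in replicate 2, where the EV libraries ran from 0.222 to 0.652% (median 0.397%).

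The second scale relates a miRNA to the other miRNAs of its library: CPM of the miRNA reads after TMM normalization (a trimmed mean of ratios between libraries), called TMM CPM here. On this scale the 12-month EV libraries stood apart for 0 of the 7 members, as for 3 of 307 miRNAs (0.977%). The highest age mean was 1.31 to 1.91 times the lowest in EVs (median 1.56) and 1.37 to 2.06 times in plasma (median 1.63). In EVs, miR-191-5p ran from 4641 to 8416 TMM CPM with a median of 6389, and in plasma from 4047 to 12007 with a median of 6720. The 12-month EV libraries of miR-191-5p, at 5499 and 7698, lay inside the range of the other 12.

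For miR-423-5p the 12-month EV libraries moved from one end to the other with the scale. In RPM they were at 19.6 and 21.7, above the other 12 (9.83 to 18.7), and in TMM CPM they were at 1394 and 1722, with the lower of the pair below all 12 others (1600 to 3563). The mean of miR-484 in EVs was lowest at 6 months on this scale, 919 TMM CPM, where 3 of the 4 libraries were at 803, 849 and 857 and the other at 1166. In plasma miR-484 was lowest at 12 months, with 1155 and 1268 TMM CPM, while the 2-month libraries were at 1671, 1959 and 2281.

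**Figure D1:**
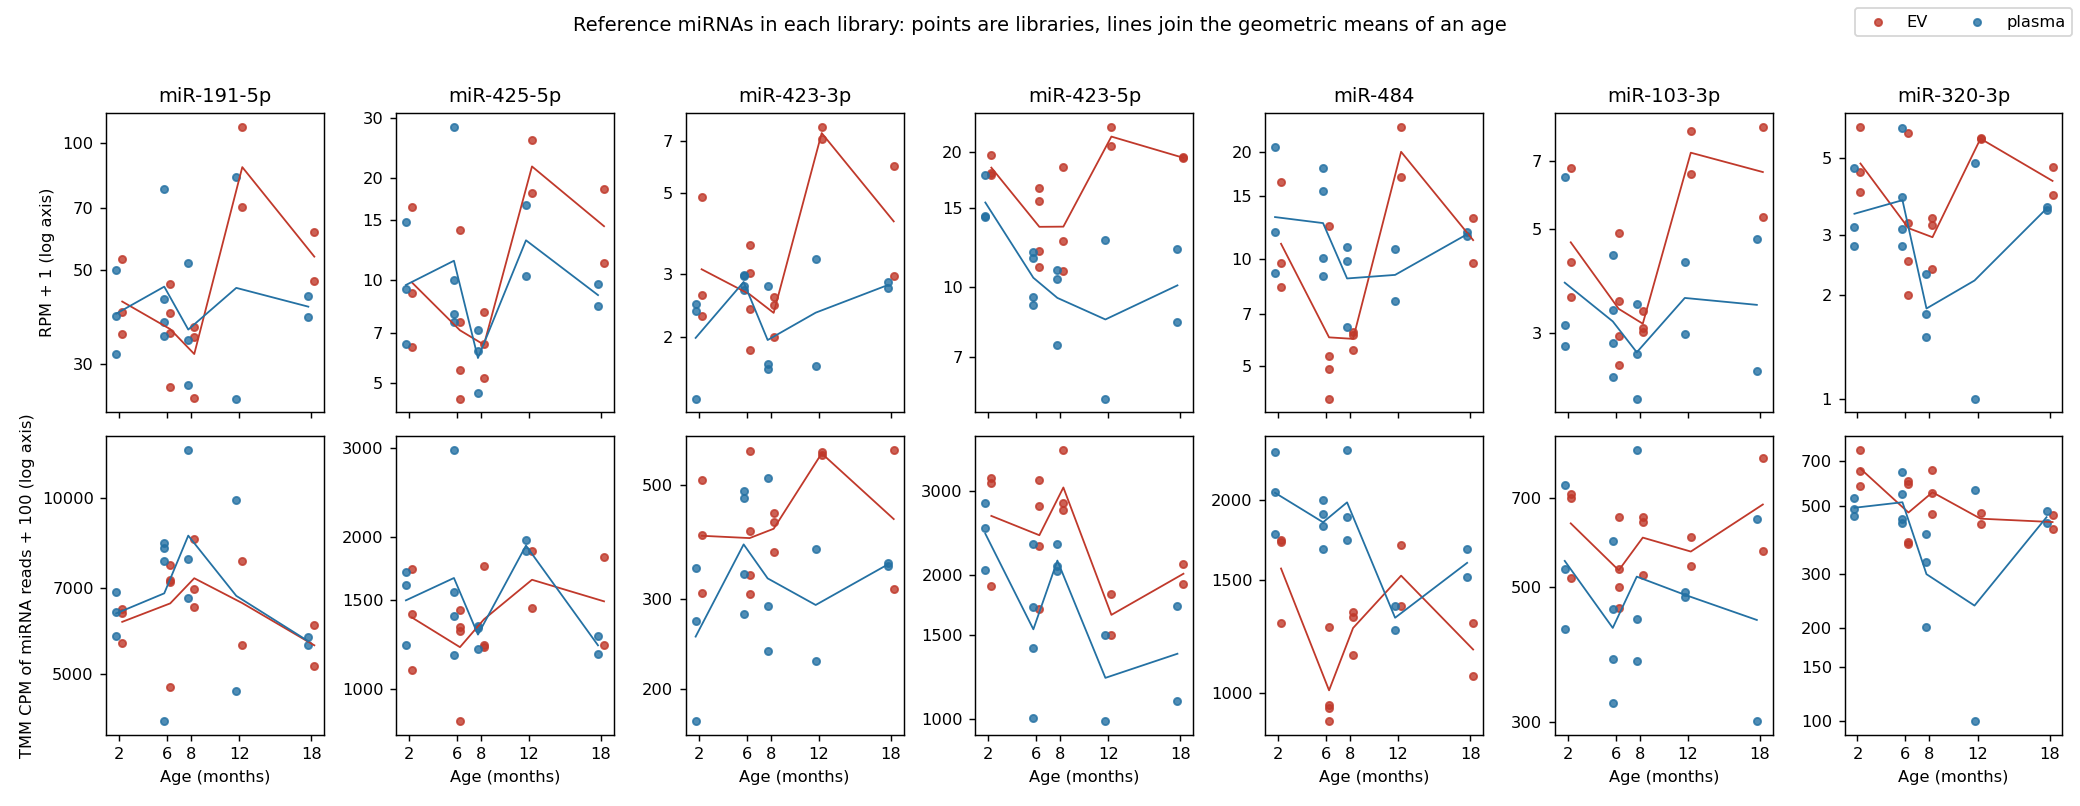
Level of each reference miRNA against age in months, 1 point per library, EVs in red and plasma in blue; the upper row is RPM + 1 and the lower row TMM CPM + 100, both on log axes, and lines join geometric means per age. In the upper row the EV line peaks at 12 months for each of the 7 miRNAs, and in the lower row the 12-month EV points lie within the range of the other EV points except for 1 low point of miR-423-5p and 1 high point of miR-425-5p.

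No member passed the test of an age trend within the miRNAs. The quasi-likelihood test of edgeR, adjusted by Benjamini-Hochberg, called 0 of 304 miRNAs in plasma (0%), with 47 at an unadjusted p under 0.05 and 2 called by DESeq2 (0.658%), and 1 of 307 in EVs (0.326%), with 37 at an unadjusted p under 0.05 and 2 by DESeq2 (0.651%). The adjusted p of the members lay at 0.272 or above in plasma and at 0.521 or above in EVs. With age as 5 levels, 24 of 304 miRNAs were called in plasma (7.89%) and 1 of 307 in EVs (0.326%), and again 0 of the 7 members (adjusted p from 0.351 in plasma and from 0.537 in EVs; 0 members had an unadjusted p under 0.05). DESeq2 called 32 miRNAs in plasma (10.5%) and 11 in EVs (3.58%), and RPM scaling 17 in plasma (5.59%), again without a member in these fits. A p above the threshold does not show a level value, so the change fitted over the 16 months from 2 to 18 is given with its 95% interval.

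miR-191-5p had estimates close to 0. In plasma its change was a log2 value of -0.18 (-0.93 to 0.58), and in EVs 0.01 (-0.56 to 0.59). Of the 7, it was the only member whose interval lay within 2-fold either way in plasma, where 7.24% of the 304 miRNAs did. In EVs the interval lay within 2-fold for 3 members, miR-191-5p, miR-484 (-0.04, -0.71 to 0.63) and miR-103-3p (0.31, -0.35 to 0.97), beside 9.45% of the 307 miRNAs tested. Its neighbour in the genome, miR-425-5p, had a change of -0.25 (-1.05 to 0.56) in plasma and 0.40 (-0.26 to 1.06) in EVs.

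The intervals of the others allowed larger changes. miR-423-5p, which has been studied as a plasma marker of heart failure, had the most negative plasma estimate, a log2 change of -0.88 over 16 months (-1.66 to -0.11, unadjusted p = 0.0277, adjusted p = 0.272 by edgeR's quasi-likelihood test), and -0.44 (-1.19 to 0.32) in EVs. Its plasma mean at the age of 2 months was 2362 TMM CPM ± 388 (SD, n = 3), followed by 1512 ± 559 (n = 4) for 6, 2047 ± 150 (n = 3) for 8, 1144 ± 363 (n = 2) for 12 and 1304 ± 447 (n = 2) for 18 months. The values did not fall steadily: the 8-month mean was above the 6-month mean, and the ranges at 2 months (1953 to 2724) and 8 months (1938 to 2218) overlapped. miR-484 had the narrowest interval of the 7 in plasma, -1.17 to 0.10 around -0.53. The 3 scarce members had the widest intervals in plasma, of which miR-320-3p had -1.38 to 0.90, miR-103-3p -1.32 to 0.82 and miR-423-3p -0.95 to 1.45. In EVs the estimate of miR-320-3p was -0.52 (-1.26 to 0.22) and that of miR-423-3p 0.58 (-0.27 to 1.43).

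**Figure D2:**
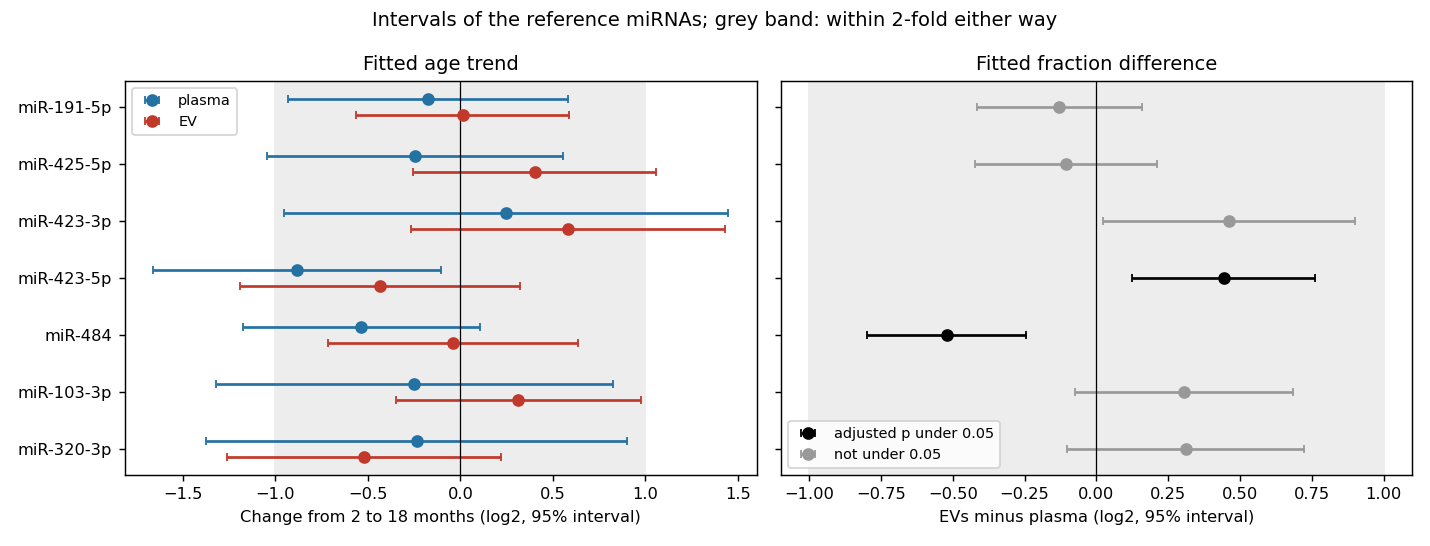
Left, change of each reference miRNA from 2 to 18 months fitted by edgeR in plasma (blue) and EVs (red); right, EVs minus plasma; the x axes are log2, bars are 95% intervals and the grey band marks 2-fold either way. All 7 intervals of the fraction difference lie inside the band, and 2 of them, for miR-423-5p and miR-484, are drawn in black for an adjusted p under 0.05.

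Rank correlations with age also called none of the members. Within miRNAs, rho in plasma ran from -0.62 for miR-484 to 0.11 for miR-423-3p over 14 mice, and in EVs from -0.46 for miR-320-3p to 0.40 for miR-423-3p and miR-425-5p. For miR-484 in plasma rho was -0.62 (permutation p = 0.0211, adjusted p = 0.411 over 304 miRNAs) and r -0.63 (p = 0.0166, adjusted p = 0.220). Without the 2 mice of 18 months, which are farthest from the median age, r was -0.74 (permutation p = 0.00691, adjusted p = 0.300) and rho -0.54 (permutation p = 0.0773, adjusted p = 0.656), so that the rank correlation no longer had an unadjusted p under 0.05. For miR-423-5p in plasma rho was -0.60 (permutation p = 0.0278, adjusted p = 0.411), r was -0.59 (p = 0.0279, adjusted p = 0.270) and without those 2 mice r was -0.64 (p = 0.0242, adjusted p = 0.409) and rho -0.63 (p = 0.0328, adjusted p = 0.656). These were the 2 members with an unadjusted p under 0.05, as were 33 of the 304 miRNAs (10.9%). On RPM, rho ran from -0.53 (miR-423-5p) to 0.24 (miR-423-3p) in plasma, while it ran from -0.01 (miR-320-3p) to 0.41 (miR-425-5p) in EVs, and 0 members had a permutation p under 0.05. Without the 18-month mice, miR-423-5p in plasma did on RPM, with rho = -0.64 (permutation p = 0.0288, adjusted p = 0.934) and r = -0.70 (permutation p = 0.0114, adjusted p = 0.439). For rho, 0 miRNAs were called after adjustment on either scale in either fraction. An unadjusted permutation p of rho under 0.05 was found for 17 miRNAs in plasma (5.59%) and 24 in EVs (7.82%) on RPM. Within miRNAs it was found for 27 in EVs (8.79%).

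The interaction of age and fraction was called for 0 of 333 miRNAs (0%), with 11 at an unadjusted p under 0.05 (3.3%) and 0 called by DESeq2. For the members, the EV slope less the plasma slope ran from -0.03 to 0.03 log2 per month, and the smallest unadjusted p was 0.35 in edgeR's fit across all miRNAs.

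Between the fractions, 2 members were called, in opposite directions. The same edgeR quasi-likelihood test and adjustment called 61 of 333 miRNAs (18.3%), 27 higher in EVs (8.11%) and 34 higher in plasma (10.2%). Of the 7 members, miR-484 was higher in plasma and miR-423-5p higher in EVs. With 7 members, 2 calls are a share not far from this background. The fit held no term for the mouse. miR-484 ran from 1155 to 2302 TMM CPM in plasma with a median of 1697, and from 803 to 1634 in EVs with a median of 1186. The ranges overlapped, with 3 of the 4 EV libraries of 6 months at the low end. Its EV minus plasma difference was a log2 value of -0.52 ± 0.14 (SE, 95% interval -0.80 to -0.25, adjusted p = 0.00597), so that plasma was 1.44 times EVs.

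miR-423-5p ran from 888 to 2724 TMM CPM in plasma with a median of 1779, and from 1394 to 3563 in EVs with a median of 2418. The ranges overlapped here too. The difference was 0.44 ± 0.16 (SE, 95% interval 0.12 to 0.76, adjusted p = 0.0449 by edgeR's quasi-likelihood test), 1.36 times higher in EVs. This call was near the threshold, and leaving out any 1 of 8 mice moved its adjusted p above 0.05, to 0.0572 (8-month replicate 1 or 12-month replicate 1), 0.0620 (6-month replicate 1), 0.0660 (6-month replicate 2), 0.0720 (8-month replicate 3), 0.0765 (2-month replicate 1), 0.0769 (8-month replicate 2) or 0.114 (18-month replicate 1), with a difference of 0.36 to 0.46. The call of miR-484 held without each mouse in turn (difference -0.55 to -0.44). Without the 2 mice of the shared plasma code the difference was 0.54 for miR-423-5p (adjusted p = 0.0309, edgeR) and -0.59 for miR-484 (adjusted p = 0.00825, edgeR). On RPM scaling neither was called: miR-423-5p had 0.63 ± 0.22 (adjusted p = 0.0540, edgeR) and miR-484 -0.21 ± 0.28 (adjusted p = 0.646, edgeR), beside 43 of 333 miRNAs called (12.9%).

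The other 5 members had intervals inside 2-fold, as had 59.8% of the 333 miRNAs. miR-191-5p had -0.13 (95% interval -0.42 to 0.16) and miR-425-5p -0.11 (-0.42 to 0.21), both around 0. The other arm of the miR-423 hairpin, miR-423-3p, had 0.46 (0.02 to 0.90, adjusted p = 0.125 by edgeR's quasi-likelihood test). miR-103-3p, a regulator of insulin sensitivity, had 0.30 (-0.08 to 0.68). miR-320-3p, which like miR-484 is made without Drosha, had 0.31 (-0.10 to 0.72).

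Within mice, where EVs and plasma of the same animal were compared, the same 2 members were called on the miRNA scale, by an exact test over every sign change of the 14 differences, which called 88 of 333 miRNAs (26.4%). Here too, 2 calls among the members are a share near that of all miRNAs. Only 1 of 14 mice had more miR-484 in EVs, with a mean log2 difference of -0.51 ± 0.44 (SD, exact p = 0.00183, adjusted p = 0.0130). miR-423-5p was higher in EVs in 12 of 14 mice, by 0.46 ± 0.44 (SD, exact p = 0.00195, adjusted p = 0.0133). The difference ran from -0.40 to 1.20 among mice for miR-423-5p and from -1.15 to 0.44 for miR-484.

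On log2(RPM + 1) the same exact test called 61 of 333 miRNAs (18.3%), 20 of them lower in EVs (6.01%), and 1 member. miR-423-5p was higher in EVs in 14 of 14 mice, by 0.60 ± 0.49 (SD, exact p = 0.000122, the smallest this test can give, adjusted p = 0.00290). For miR-484, 5 of 14 mice were higher in EVs, with a mean difference of -0.32 ± 0.88 (SD, exact p = 0.193, adjusted p = 0.347). miR-423-5p thus passed the within-mouse test on both scales and miR-484 on the miRNA scale, and whether the scales differ was not tested.

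**Figure D3:**
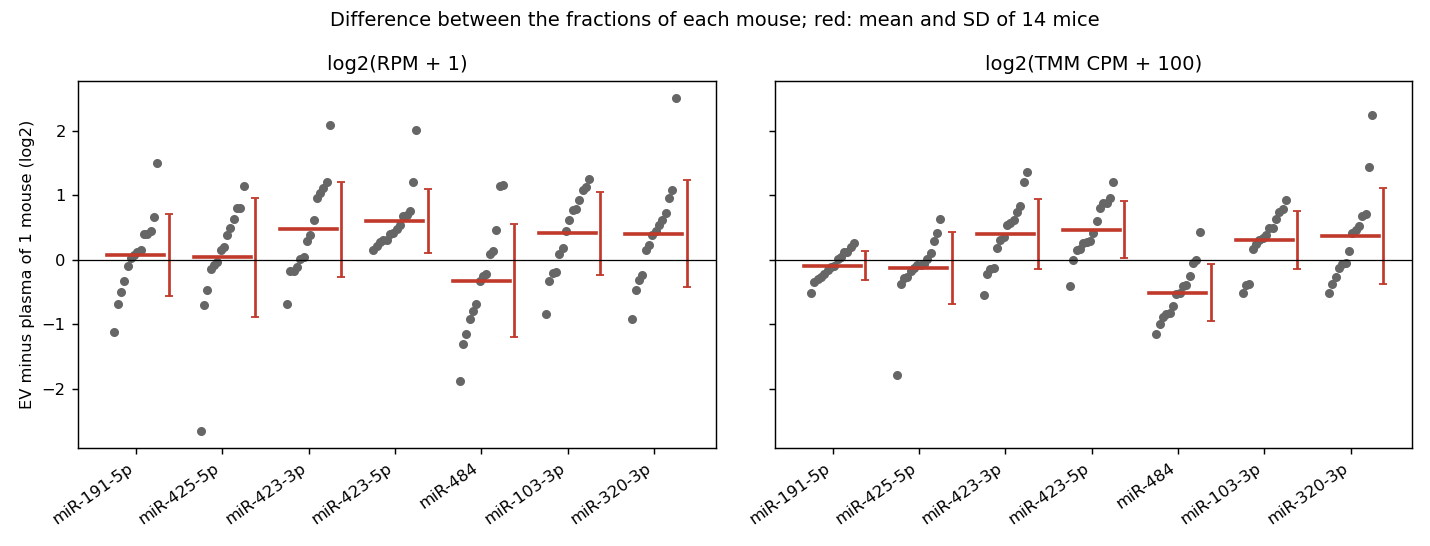
EV minus plasma difference of each of the 14 mice (grey points, sorted by value) for each reference miRNA, on log2(RPM + 1) at the left and log2(TMM CPM + 100) at the right, with the mean and SD in red. The 14 points of miR-423-5p lie above 0 at the left, and 13 of 14 points of miR-484 lie below 0 at the right.

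The spread of a member over the 28 libraries was smaller within miRNAs than in RPM for 6 of 7 members. The median SD of the 205 miRNAs with a mean of at least 10 counts was also smaller within miRNAs, 0.56 against 0.70. The share of these miRNAs with the smaller SD was not counted, so this is not read as a trait of the members. On log2(RPM + 1) the SD ran from 0.49 for miR-423-5p to 0.72 for miR-425-5p, with a median of 0.60, beside a median of 0.70 over the 205 miRNAs with a mean of at least 10 counts. With 0.1 RPM in place of 1 RPM it ran from 0.53 for miR-423-5p to 1.18 for miR-320-3p, with miR-423-3p at 0.89 and miR-103-3p at 0.70. Counted from the lowest SD of the 205, the scarce members then moved up in rank, miR-320-3p from 77th to 163rd, and the other members down. On log2(TMM CPM + 100) the SD ran from 0.34 for miR-191-5p to 0.56 for miR-320-3p, with a median of 0.38 beside 0.56. The exception was miR-423-5p, whose SD was 0.49 on RPM and 0.50 within miRNAs, and which had the lowest SD of the 7 on RPM and the second highest within miRNAs. This exception depended on the measure of spread. With pseudocounts of 0.1 RPM and 10 TMM CPM the SD of miR-423-5p was 0.533 on RPM and 0.529 within miRNAs, and without the library under 2000000 counts it was 0.49 and 0.47, so that all 7 members had the smaller SD within miRNAs in both cases. By the median absolute deviation (scaled to match an SD), miR-423-5p was at 0.60 on RPM, the 5th lowest of the 7, and at 0.51 within miRNAs, and miR-423-3p was the exception, at 0.28 and 0.45.

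Rank among other miRNAs was taken where counts were at least 10 in every library, which held for 61 miRNAs. Counted from the lowest SD, miR-191-5p was 8th on both scales, miR-425-5p was 27th on RPM and 10th within miRNAs, and miR-484 was 19th and 18th. Some of these ranks rested on the shallow plasma library of the 6-month replicate 1: without it miR-425-5p was 22nd on RPM and 1st within miRNAs (SD 0.28), miR-191-5p 6th and 10th, and miR-484 20th and 18th. By the median absolute deviation miR-191-5p was 2nd on RPM and 13th within miRNAs, miR-425-5p 21st and 7th, and miR-484 14th and 21st. With all libraries, the lowest SD of the 61 was that of let-7a-5p on RPM (0.45) and of let-7g-5p within miRNAs (0.29). Counting sets a floor to these values. Poisson error alone gave an SD of 0.10 for miR-191-5p, 0.20 for miR-425-5p and 0.21 for miR-484 within miRNAs, but 0.38 for miR-423-3p (SD 0.45) and 0.33 for miR-103-3p (SD 0.37), so for these 2 scarce members the spread was little above counting error.

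The SD was also taken in each fraction. On the miRNA scale miR-191-5p had an SD of 0.41 in plasma and 0.24 in EVs, and miR-320-3p 0.70 and 0.31, both without a test. For miR-320-3p the plasma library with 0 counts lay at 6.64 on log2(TMM CPM + 100), against 7.66 to 9.32 in the other 13, and over all 28 libraries its median absolute deviation was 0.32 where its SD was 0.56. That lowest value is set by the pseudocount of 100 alone, so the SD of miR-320-3p depends on the pseudocount and is larger with a smaller one. miR-484 had the smallest SD of the 7 in plasma, 0.27, and 0.31 in EVs. Without the library under 2000000 counts the smallest in plasma was that of miR-425-5p, 0.26, with miR-484 at 0.28. The SD of miR-484 within age and fraction groups was 0.19, against 0.38 over all 28 libraries. Poisson error alone gave 0.21, so the value within groups was no larger than counting error.

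**Figure D4:**
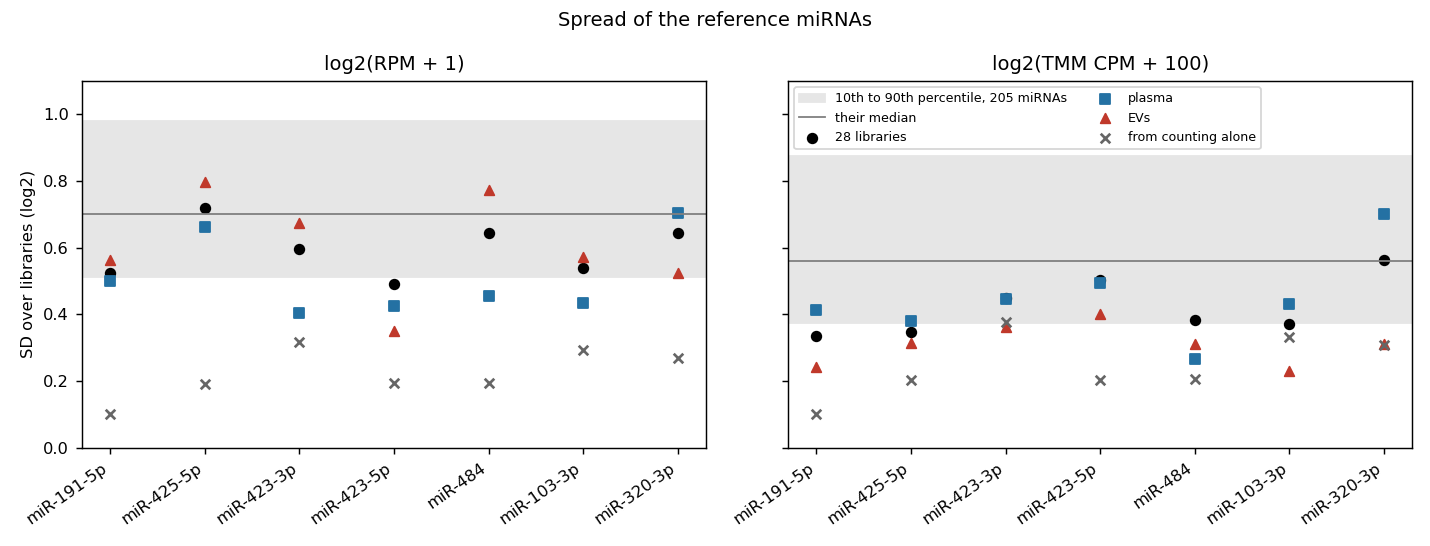
SD (log2) of each reference miRNA over the 28 libraries (black), in plasma (blue), in EVs (red) and from counting alone (crosses), on RPM at the left and within miRNAs at the right; the grey band spans the 10th to 90th percentile of 205 miRNAs and the line is their median. At the right, miR-191-5p, miR-425-5p and miR-103-3p lie below the band at 0.34, 0.35 and 0.37, and miR-320-3p lies at the median line at 0.56.

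Since a reference serves as a divisor, the members were set against each other on log2(TMM CPM + 100), with p-values unadjusted over 21 pairs. Over these pairs the SD of the log2 ratio in 28 libraries ran from 0.44 to 0.74 (median 0.56). The most constant pairs were miR-191-5p with miR-425-5p and miR-425-5p with miR-484, both at 0.44. The least constant was miR-425-5p with miR-423-5p, at 0.74, followed by miR-423-5p with miR-484, at 0.70. Averaged over the 6 ratios of a member, miR-191-5p had the lowest SD, 0.50, and miR-320-3p and miR-423-5p the highest, both 0.62. Without the library under 2000000 counts the first 2 pairs were still the most constant (0.42 and 0.43), but the SD of miR-425-5p with miR-423-5p was 0.63 and the least constant pair was miR-484 with miR-320-3p, at 0.69.

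The ratio of miR-423-5p to miR-484 moved most between fractions. It was higher in EVs in 12 of 14 mice, by 0.97 ± 0.74 (log2, SD; exact p = 0.000854, unadjusted), a 1.96-fold difference. The ratio of miR-423-3p to miR-484 moved the same way in 14 of 14 mice, higher in EVs by 0.91 ± 0.49 (SD, exact p = 0.000122, unadjusted). In pooled counts, 1.04 counts of miR-423-5p were present per count of miR-484 in plasma and 1.63 in EVs. For miR-191-5p over miR-425-5p, 6 of 14 mice were higher in EVs, with a mean difference of 0.04 ± 0.62 (SD, exact p = 0.849).

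Against the mean log2 level of the other 6 members, miR-484 was at 0.81 ± 0.28 (SD, n = 14) in plasma and 0.09 ± 0.28 in EVs, lower in EVs by 0.73 on average and higher there in 1 of 14 mice (exact p = 0.000244, unadjusted). miR-191-5p was at 3.08 ± 0.34 and 2.84 ± 0.25, and its difference of -0.24 ± 0.28 (SD, exact p = 0.00794, unadjusted) contains the opposite movement of those it was set against. Relations to age of a member against the other 6 had rho between -0.43 and 0.42 in plasma, against -0.52 to 0.42 in EVs, with the smallest permutation p at 0.0572, for miR-320-3p in EVs (r = -0.51, permutation p = 0.0616, and -0.54 with p = 0.0723 without the 18-month mice). Without those mice the smallest p of r was that of miR-191-5p in plasma (r = 0.57, permutation p = 0.0526), which had r = 0.16 (permutation p = 0.598) over all 14.

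**Figure D5:**
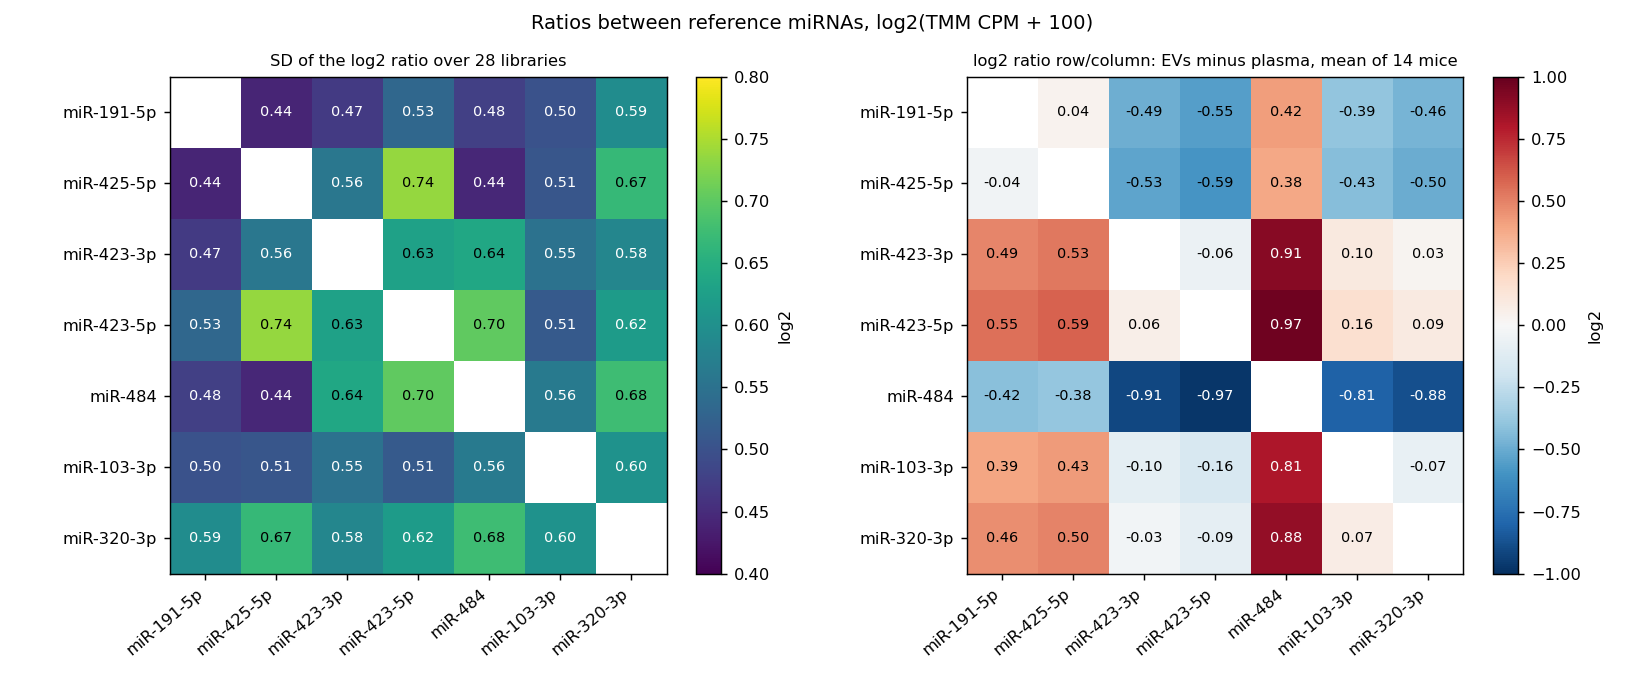
Ratios between the 7 reference miRNAs on log2(TMM CPM + 100): left, SD of the log2 ratio over 28 libraries; right, mean over 14 mice of the log2 ratio of the row to the column in EVs minus that in plasma. The column of miR-484 is positive for each of the other 6, from 0.38 for miR-425-5p to 0.97 for miR-423-5p.

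Members that share a hairpin or a locus had low rank correlations with each other. Over 28 libraries, the rank correlation of TMM CPM was 0.18 for miR-191-5p with miR-425-5p and 0.11 for the arms of miR-423. These values describe libraries that differ in depth and come in pairs from 1 mouse. Counting error alone gave miR-423-3p an SD of 0.38, beside its SD of 0.45. The low value for the arms of miR-423 therefore cannot tell whether they varied together. Within the miR-423 hairpin, the 5p arm had 7.33 pooled counts per count of the 3p arm in plasma and 5.70 in EVs, while the median of the libraries ran the other way, at 6.21 and 7.89. Between libraries this ratio ran from 4.00 to 37.5 and from 2.95 to 14.5, so no order of the fractions was read from it. The miRNA closest to miR-103-3p among the 333 was miR-107-3p (rho = 0.88), which shares its seed and all but 1 base. That of miR-191-5p was miR-128-3p (0.84), of miR-423-5p let-7a-5p (0.83), of miR-484 miR-16-2-3p (0.63), of miR-320-3p miR-181b-5p (0.61), of miR-423-3p miR-215-3p (0.59) and of miR-425-5p miR-664-3p (0.47).

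The opposite arms of the hairpins were mostly at the limit of detection. Pooled over 14 plasma and 14 EV libraries, miR-191-3p had 8 and 20 counts, miR-425-3p 17 and 52, miR-103-1-5p 6 and 14 and miR-103-2-5p 14 and 45. miR-320-5p was not: it had 126 counts in plasma and 321 in EVs, with 1.46 and 1.16 counts of miR-320-3p per count of it. Its EV minus plasma difference was a log2 value of 0.83 ± 0.34 (SE, adjusted p = 0.0820 by edgeR's quasi-likelihood test). miR-107-3p had 133 and 289 counts and a difference of 0.25 ± 0.21 (SE, adjusted p = 0.448, edgeR).

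As an example of what the choice of divisor does, miR-29c-3p, a miRNA whose relation to age the study follows, was divided by each member in turn. In plasma its slope with age was 0.08 log2 per month on TMM CPM alone (rho = 0.71) and 0.09 on RPM (rho = 0.39). Divided by a single member it ran from 0.07 (miR-423-3p) to 0.13 (miR-423-5p), 2.00 times as steep, with rho from 0.55 (miR-191-5p) to 0.73 (miR-320-3p). In EVs the slope ran from 0.06 (miR-423-3p) to 0.11 (miR-423-5p), 1.88 times as steep, with rho from 0.57 (miR-423-5p) to 0.85 (miR-320-3p). The direction was upward under each of the 7 divisors in both fractions. Without the 18-month mice the unadjusted permutation p of r was above 0.05 for several divisors. In plasma r was 0.29 with miR-191-5p (0.58 over all 14 mice, permutation p = 0.371 without the 18-month mice), 0.34 with miR-425-5p (0.64, p = 0.283), 0.37 with miR-423-3p (0.57, p = 0.231) and 0.44 with miR-103-3p (0.61, p = 0.149). In EVs r was 0.49 with miR-191-5p (0.66, permutation p = 0.103), 0.57 with miR-425-5p (0.63, p = 0.0541) and 0.39 with miR-423-3p (0.56, p = 0.216). Without a divisor the same was found for TMM CPM in plasma (r = 0.55 without and 0.72 with these mice, permutation p = 0.0646) and for RPM in plasma (0.31 and 0.57, p = 0.331) and EVs (0.57 and 0.66, p = 0.0551). With miR-423-5p, miR-484 and miR-320-3p as divisor p was below 0.05 in both fractions, and whether r differs between divisors was not tested.

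Of 26 other miRNAs proposed as references in circulation, 0 were called for age by edgeR's quasi-likelihood test, where 25 were tested in plasma and 26 in EVs, and 5 of 26 were called for the fraction difference, a share near the 18.3% of all 333 miRNAs. Higher in EVs were miR-142a-3p, a miRNA of blood cells (0.77 ± 0.17, SE), miR-22-3p (0.62 ± 0.14), miR-24-3p (0.38 ± 0.13) and let-7i-5p (0.34 ± 0.11), and higher in plasma was miR-92a-3p of the miR-17-92 cluster (-0.48 ± 0.14). Their median SD was 0.63 on RPM and 0.46 within miRNAs, beside 0.60 and 0.38 for the 7 members. The lowest SDs of this list were those of let-7a-5p (0.45) and let-7g-5p (0.52) on RPM and of let-7g-5p (0.29) and miR-30c-5p (0.32) within miRNAs, and the highest those of miR-126a-3p (1.00) and miR-451a (0.85) on RPM and of miR-128-3p (0.84) and miR-142a-3p (0.62) within miRNAs.

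miRNAs of blood cells and tissues were measured beside these results, and each listed miRNA had a count in both fractions. The summed level of 5 red cell miRNAs ran from 110369 to 368965 TMM CPM in the plasma libraries (median 206462), against 84730 to 377206 in EVs (median 184157), and the log2 ratio of miR-451a to miR-23a-3p, a measure of red cell content, from 1.02 to 3.57 and from 0.45 to 2.85. The median was 19624 in plasma and 19066 in EVs for 3 platelet and myeloid miRNAs, 12462 and 8914 for 2 lymphocyte miRNAs, 7287 and 8921 for 3 liver miRNAs, and 430 and 457 for 4 muscle miRNAs. Their part in the members' differences was not tested.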

How the data were processed

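Small RNA of 14 EV pellets and 14 EV-depleted plasma samples was sequenced. The deposited tables hold, per RNA and library, estimated counts and a per-million signal (RPM) that the authors made by dividing each count by 1 number per library. That number is not the total count. The aligner and annotation were not given in sources used here. The submitters' processing notes name build mm10 and R 4.0.4, and the labels give no sequencing batch.

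Estimated counts were rounded and tested with edgeR 4.0.16 (R 4.3.3; quasi-likelihood, TMM over miRNAs, Benjamini-Hochberg threshold 0.05) on miRNAs that reached 1 RPM in over 10% of libraries. DESeq2 1.42.0 was an alternative. 95% intervals come from the fit's SE. Permutation tests drew 100000 resamples, and within-mouse tests used every sign change; all were two-sided. Pseudocounts were 1 RPM and 100 TMM CPM. Scripts were tested on simulated data. P-values of the age fits, the correlations with age and the within-mouse tests measure the spread between mice. The main fits of the fraction difference and the interaction held no term for the mouse, so their p-values measure the spread between libraries.

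Libraries pair by mouse, since the labels give both fractions the same animal code and replicate number (the number alone for 2 mice of 2 months). Deviations from group means over 278 miRNAs correlated within pairs at 0.04 to 0.69. At 12 and 18 months the 2 pairs of an age give 1 value by construction, and counting each such age once, 11 of 12 values were above 0.1.

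Named miRNAs were all 7 members, their hairpins' other arms, miR-107-3p, list members that passed a test or had the 2 lowest or highest SDs, each member's nearest miRNA, and miR-29c-3p as a worked example. Members and lists were chosen with earlier results of these data known. Alternatives were other scalings, filters, pseudocounts, tools, the median absolute deviation, leaving out the library under 2000000 counts, a replicate block and leaving out mice.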

Additional observations from a re-analysis of the deposited data

Results flagged for a closer look

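Dixon's criterion was applied to 28 sets of 4 values, each of 1 member, 1 fraction and 1 scale at 6 months. In 3 of them, 1 library lay far from the other 3. Chance meets the criterion in about 1 of 20 independent sets. These sets share the same mice and are not independent, so their count was not compared with that share. All 3 were the 6-month replicate 4 on log2(TMM CPM + 100). For miR-191-5p this mouse was the lowest of its age in EVs, at 4641 TMM CPM against 7086 to 7587 in the others (gap over range 0.861), and in plasma, at 4047 against 7692 to 8282 (0.896). For miR-484 it was the highest in EVs, at 1166 against 803 to 857 (0.830). Without this mouse the fraction difference was -0.51 for miR-484 and 0.46 for miR-423-5p, both still called by edgeR's quasi-likelihood test (adjusted p = 0.00838 and 0.0357).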

How the results depend on the processing

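No member was called for an age trend under any alternative run, while counts over all miRNAs moved. In plasma the trend called 2 miRNAs by DESeq2, 7 with no filter and 8 without the 18-month mice (0 to 4 leaving out each mouse), and in EVs 2 by DESeq2, 0 with RPM scaling, 7 with no filter, 0 with the 5 RPM filter, 3 without the 18-month mice and 5 on log2 of age (0 to 10 leaving out each mouse, 10 without 6-month replicate 4). Age as 5 levels called 14 in plasma without the 18-month mice (7 to 29 leaving out each mouse), and in EVs 11 by DESeq2, 71 with RPM scaling (2 of them members), 19 with no filter and 0 with the 5 RPM filter (0 to 3 leaving out each mouse). The interaction called 1 with no filter and 1 without the 18-month mice. Correlation within miRNAs in EVs called 1 by Pearson's r (0 to 3 leaving out each mouse), and the within-mouse test on RPM 38 without the 2-month mice of shared plasma labels. In the fraction difference, the members called fell from 2 to 0 with RPM scaling and with no filter, and to 1 (miR-484) when scaled to miRNA reads, with the 5 RPM filter, without the 18-month mice and without the library under 2000000 counts (1 to 2 leaving out each mouse, where all miRNAs called were 47 to 60). With mouse as a replicate block, 88 of 333 miRNAs were called, with miR-423-5p (adjusted p = 0.00700) and miR-484 (adjusted p = 0.00261) the members called in this edgeR fit.

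Signs that changed were mostly of estimates near 0. With RPM scaling the slope per month became 0.0069 (miR-191-5p) and 0.000265 (miR-320-3p) in plasma and 0.020 (miR-423-5p), 0.043 (miR-484) and 0.0094 (miR-320-3p) in EVs, and the fraction difference 0.085 (miR-191-5p) and 0.12 (miR-425-5p). Without the 18-month mice the slope was 0.030 (miR-191-5p) and 0.017 (miR-425-5p) in plasma and -0.017 (miR-103-3p) in EVs. In EVs the slope of miR-191-5p was -0.0032 by DESeq2, -0.0019 scaled to miRNA reads and -0.0062 with the 5 RPM filter, and that of miR-484 was 0.0079 with no filter. The fraction difference of miR-425-5p was 0.040 with no filter and its within-mouse mean on RPM -0.020 without the 2-month mice of shared plasma labels. For miR-320-3p in EVs on RPM Pearson's r was 0.084. Leaving out each mouse, slopes ran from -0.0022 to 0.027 (miR-103-3p), -0.0065 to 0.0055 (miR-191-5p) and -0.010 to 0.0067 (miR-484) in EVs, and from -0.053 to 0.0040 (miR-103-3p), -0.022 to 0.0039 (miR-191-5p) and -0.0016 to 0.024 (miR-423-3p) in plasma. The fraction difference of miR-425-5p ran from -0.15 to 0.011, and rho from -0.12 to 0.21 for miR-320-3p in EVs on RPM and from -0.082 to 0.23 for miR-423-3p in plasma within miRNAs. The causes were not tested. With counts as low as 1 per library, small changes of miR-423-3p, miR-103-3p and miR-320-3p in plasma were not detectable at this depth.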
